A study of Mus musculus with 4 samples.

Results

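The antiviral interferon-stimulated genes described here are a set of 39 named genes, chosen by symbol from the families that type I interferon is known to switch on against viruses. Of these, 38 were rows of the count table, which held 14432 genes, and Mx2 was not analysed here. Their transcripts were followed by single-cell RNA sequencing in bone marrow-derived macrophages, which are primary macrophages grown from mouse marrow in 50 ng/mL of the growth factor M-CSF. Marrow donors were 8 to 12 weeks old and were wild type (C57BL/6J in the titles, C57BL/6 in the growth protocol) or labelled Trpv4-null, that is, without the calcium-permeable channel TRPV4, and no further strain detail was given for the latter. Cells were left untreated or received 100 ng/mL of lipopolysaccharide (LPS), a bacterial cell wall component, for 24 h. There were 4 libraries, 1 for each genotype and treatment. The design text names 3 mice per genotype and 12 samples, but the cell annotation gives only the library, so the mice in a library could not be separated and no difference has a replicate check. The authors had sorted the 27366 cells into 9 clusters, of which they named one, Ifit1bl1+_Cmpk2+, after a pair of these genes; it held 1941 cells, and the other clusters held 25425.

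Viral or bacterial products sensed by macrophages start transcription of interferon-beta, which is secreted and binds the receptor pair IFNAR1 and IFNAR2 on the same and on neighbouring cells. Kinases at the receptor activate a complex that holds STAT2 and IRF9 and binds an element called ISRE in the promoters of the target genes. The products degrade viral RNA, block its translation, starve viruses of nucleotides, stop them at membranes, or sense nucleic acids. In macrophages LPS is known to reach this pathway through TLR4.

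The genes lay on the mouse genome GRCm38 partly in family arrays. Ifit2, Ifit3, Ifit1bl1, Ifit3b and Ifit1 stood together on chromosome 19 from 34550694 to 34650009, within 99.3 kb, and Rsad2 and Cmpk2 were neighbours on chromosome 12 within 37.1 kb. Oas2, Oas3, Oas1g and Oas1a lay on chromosome 5 between 120730333 and 120907521. Close copies may exchange reads: of the 50-base stretches of the Ifit3 transcripts, 51.2% also occurred in Ifit3b, and of those of Oas1a, 57.6% occurred in Oas1g. The counting of Ifi47, Usp18, Rtp4, Eif2ak2 and Sp100 may also include reads of an overlapping gene of the table, since use of strand was not stated.

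The letters to which this complex is known to bind were looked for in RefSeq promoter windows of 300 bases (250 before and 50 after the start, GRCm38.p6). An ISRE core, GAAANNGAAA on either strand, was found for 17 of the 29 members with a window (58.6%), against 3.99% of the 27025 genes in the promoter table and 4.06% of the genes of the count table that had one. A GAS core, TTCNNNGAA on either strand, an element known from genes that answer interferon-gamma, was found for 8 (27.6%), against 9.55%. Both were found in 4 windows, and in 2 of them they shared bases. No window was given for Mx1, Oas2, Ifi204, Dhx58, Usp18, Zbp1, Rtp4, Ly6e and Ly6a. Excerpts of 10 windows are shown because they belong to members the results below turn on, or to close copies of one another; capitals mark the ISRE core on either strand, with up to 25 bases on each side (the Eif2ak2 excerpt ends with its window), read 5′ to 3′ on the gene's strand.
Ifit1, chr19:34640760-34640838, plus strand: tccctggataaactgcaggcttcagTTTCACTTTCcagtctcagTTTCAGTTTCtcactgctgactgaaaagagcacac
Ifit3, chr19:34583348-34583441, plus strand: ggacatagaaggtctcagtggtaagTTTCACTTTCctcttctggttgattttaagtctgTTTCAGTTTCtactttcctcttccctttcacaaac
Ifit3b, chr19:34607744-34607837, plus strand: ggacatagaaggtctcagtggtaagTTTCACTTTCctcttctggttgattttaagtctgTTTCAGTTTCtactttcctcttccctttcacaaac
Ifit1bl1, chr19:34602038-34602097, minus strand: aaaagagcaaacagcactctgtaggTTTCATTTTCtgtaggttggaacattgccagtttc
Isg15, chr4:156200850-156200921, minus strand: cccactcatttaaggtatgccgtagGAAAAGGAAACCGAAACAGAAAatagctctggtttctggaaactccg
Rsad2, chr12:26456538-26456597, minus strand: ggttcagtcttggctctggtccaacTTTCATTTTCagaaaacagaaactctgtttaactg
Oas1a, chr5:120907505-120907570, minus strand: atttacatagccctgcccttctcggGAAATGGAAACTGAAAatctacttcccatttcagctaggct
Oas1g, chr5:120887591-120887656, minus strand: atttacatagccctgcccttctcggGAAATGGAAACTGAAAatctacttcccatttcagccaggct
Oas3, chr5:120777700-120777759, minus strand: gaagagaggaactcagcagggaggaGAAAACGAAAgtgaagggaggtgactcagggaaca
Eif2ak2, chr17:78882523-78882579, minus strand: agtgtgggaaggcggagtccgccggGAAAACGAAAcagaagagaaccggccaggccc

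The Ifit3 and Ifit3b excerpts were identical over all 94 bases, and those of Oas1a and Oas1g matched at 65 of 66. Isg15 carried 3 overlapping matches in 1 run, whereas Ifit1, Ifit3 and Ifit3b each carried 2 separate ones. A match describes the letters in the window and is not a measured binding site. The windows of Cmpk2, Ifit2, Oasl2, Samhd1, Sp100, Ifi44, Herc6, Isg20, Ifi47, Xaf1, Slfn4 and Ifi35 held no match to the ISRE core.

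Counts are of unique molecular identifiers (UMIs, which mark captured mRNA molecules), summed per library and given as CPM, counts per 1000000 UMIs. The libraries held 5485 to 8288 cells and 43731003 to 144090985 UMIs, and the median cell had 5660.5 and 7893 UMIs untreated and 16673.5 and 16041 after LPS (wild type and labelled Trpv4-null). All 8 macrophage markers reached 20 CPM in a library, 0 of 6 markers of conventional dendritic cells did, 3 of the 5 neutrophil markers in the table did (highest S100a9, 153 CPM) and 1 of 3 B cell markers did (Ighm, 137 CPM), and Cd3d, the only T or NK cell marker in the table, stayed at 0.0686 CPM or less. Trpv4 counts did not follow the genotype label (untreated and LPS, 5.83 and 2.07 CPM for wild type against 8.60 and 9.62 CPM for the Trpv4-null label), so genotype is given as a label throughout and every direction between genotypes rests on it. Libraries shared 74 cell barcodes, carried by 148 cells, and the members' log2 ratios below stayed within their counting intervals without these cells.

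LPS went with higher levels of all 38 genes in both genotypes. Their summed share of a library's UMIs was 0.289% untreated and 2.09% after LPS in wild type, and 0.346% and 2.42% in the libraries labelled Trpv4-null. A gene was compared where the higher library had at least 20 CPM and 30 UMIs, and it was called by size alone, at 2-fold or more, without a test. By that rule 36 of the 37 genes compared were higher by 2-fold or more in wild type, where 6.9% of all 6332 genes compared were, and 0 were lower, against 17.7% of all genes. In the libraries labelled Trpv4-null 36 of 37 were higher and 0 lower, against 7.3% and 21.3% of all genes. The exception in both was Samhd1, and Oas1g was below 20 CPM everywhere. The median log2 ratio (of CPM plus a pseudocount of 1) over the genes was 3.32 and 3.096, against -0.39 and -0.42 for all genes, and the 95% counting interval of the ratio lay above 1 for 38 of 38 genes in each genotype. Scaling by median-of-ratios size factors moved the median of all genes to 0.19 and 0.25, and the share of higher among all 2-fold calls from 28.0% to 68.8% and from 25.6% to 69.5%; all members compared were then 2-fold higher, 37 of 37 and 38 of 38. The intervals reflect sampling of molecules and leave out any variation among mice or cultures.

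**Figure D1:**
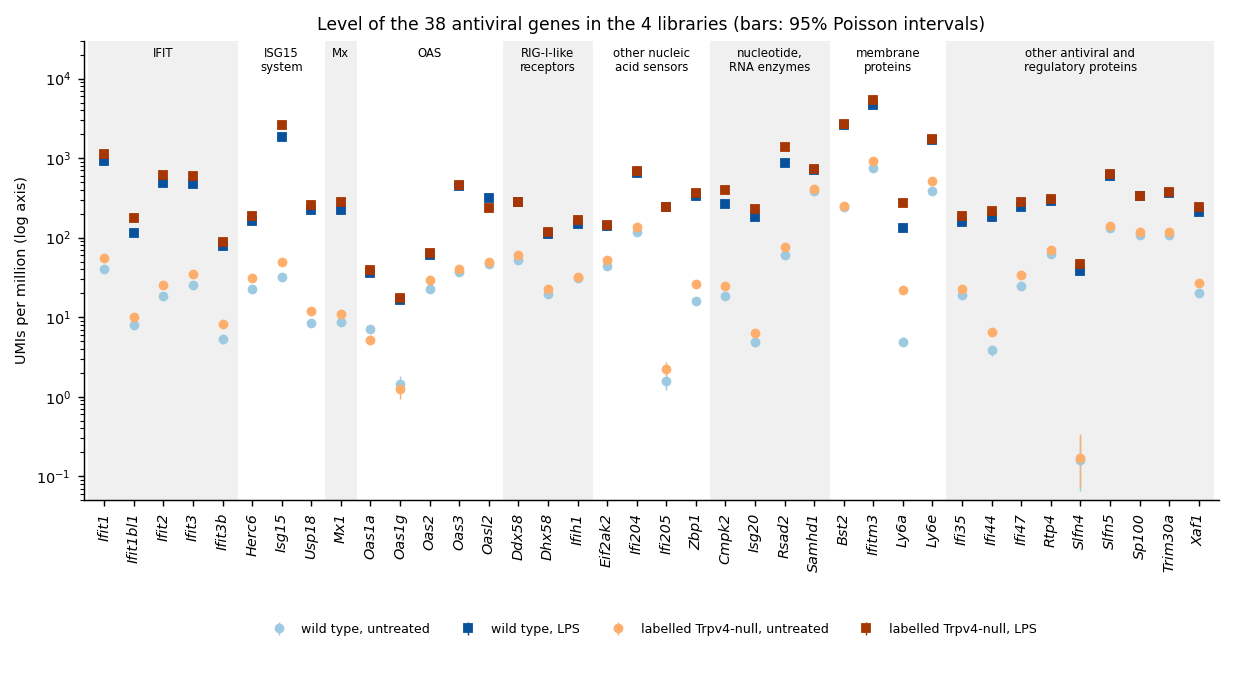
Level of each of the 38 genes in CPM (log axis) in the 4 libraries, grouped by role, with 95% Poisson intervals as bars; circles are untreated and squares LPS. The squares lie above the circles for every gene, by least for Samhd1 (384 and 718 CPM in wild type), and Slfn4 starts lowest, at 0.160 CPM.

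The IFIT genes, whose products bind viral RNA and block its translation, all showed 10-fold or larger ratios. Ifit1 had 39.9 CPM before and 910 CPM with LPS in wild type, and 55.6 and 1121 CPM in the libraries labelled Trpv4-null. The ratio was 22.8 (95% interval 21.8 to 23.9) and 20.2 (19.4 to 20.97). Both LPS libraries were high and both untreated ones low, with no overlap of the intervals. Ifit2 went from 18.5 to 484 CPM and from 25.1 to 613 CPM, and Ifit3 from 25.3 to 476 and from 35.2 to 592 CPM. For Ifit3b (5.33, 78.6, 8.28 and 87.4 CPM in the same order of libraries) the ratio was 14.8 and 10.6. Ifit1bl1, an Ifit1-like gene that gives the cluster its name, stood at 8.03, 114, 10.2 and 177 CPM, and it was the IFIT gene with a larger ratio under the Trpv4-null label (17.3) than in wild type (14.3).

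The ISG15 system attaches and removes a ubiquitin-like tag. Isg15, the tag itself, stood at 32.2 and 1854 CPM in wild type and at 49.2 and 2636 CPM under the Trpv4-null label. Its ratios of 57.7 (54.7 to 60.8) and 53.5 (51.4 to 55.8) were exceeded in both genotypes only by those of Slfn4 and Ifi205. Usp18, the protease that removes the tag and dampens receptor signalling, stood at 8.55, 226, 11.9 and 258 CPM. Herc6, a ligase that attaches it in the mouse, stood at 22.4, 162, 31.5 and 190.1 CPM, a smaller ratio of 7.22 and 6.04. Mx1 belongs to the GTPases that trap viral particles and is known to be defective in C57BL/6 mice. Its transcripts stood at 8.64 and 224 CPM in wild type and at 10.9 and 280.0 CPM under the Trpv4-null label.

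Among the OAS genes, whose enzymes make the oligoadenylate that activates RNase L, ratios were unequal. Oas3 went from 37.0 to 445 CPM and from 41.0 to 463 CPM, a ratio of 12.0 and 11.3. Oas2, with 22.7, 60.4, 29.5 and 64.2 CPM, had a ratio of only 2.66 (2.49 to 2.84) and 2.18 (2.06 to 2.31). Oasl2, an OAS-like gene, stood at 46.6, 315, 49.3 and 233 CPM and was lower under the Trpv4-null label after LPS. Oas1a stood at 7.13, 36.0, 5.21 and 38.9 CPM. Its close copy Oas1g had 1.44, 16.4, 1.23 and 17.5 CPM, and the split of reads between them is uncertain.

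The cytoplasmic RNA sensors moved alike. Ddx58, which encodes RIG-I, stood at 52.3, 284, 60.6 and 281 CPM, Ifih1 (MDA5) at 30.7, 150.4, 32.02 and 166 CPM, and Dhx58 (LGP2, their regulator) at 19.4, 111, 22.7 and 118 CPM. Their ratios lay between 4.63 and 5.71. Other sensors ranged more widely. Eif2ak2, which encodes the RNA-activated kinase PKR, had a ratio of 3.22 and 2.78, and Zbp1, a sensor of Z-form nucleic acid, stood at 15.9, 337, 26.1 and 366 CPM. Ifi204 and Ifi205 belong to the same family of DNA-binding proteins but differed: Ifi204 went from 118 to 647 CPM and from 136 to 695 CPM, whereas Ifi205 went from 1.58 to 241 CPM and from 2.26 to 240 CPM. The Ifi205 ratio was 152 (120 to 196) in wild type and 106 (88.0 to 130.2) under the Trpv4-null label.

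Of the enzymes that act on nucleotides and RNA, Rsad2 encodes viperin, which makes a chain-terminating nucleotide. Rsad2 stood at 60.0 and 866 CPM in wild type and at 75.4 and 1386 CPM under the Trpv4-null label, a ratio of 14.4 (13.9 to 14.99) and 18.4 (17.8 to 19.0). Cmpk2, its neighbour and a nucleotide kinase, stood at 18.5, 268, 25.02 and 395 CPM. Isg20, an RNA exonuclease, went from 4.85 to 182 and from 6.40 to 231 CPM. Samhd1, which breaks down deoxynucleotides, had the smallest ratio of the set, 1.87 (1.84 to 1.90) and 1.81 (1.78 to 1.84).

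Membrane proteins that act on virus entry or release were present before LPS. Ifitm3, which blocks fusion, stood at 745 and 4676 CPM in wild type and at 924 and 5335 CPM under the Trpv4-null label. Bst2, the tether of budding virus, stood at 241, 2631, 252 and 2719 CPM, and Ly6e, which hinders entry of coronaviruses, at 388, 1670, 515 and 1732 CPM. Ly6a, the surface protein Sca-1, stood apart between genotypes, at 4.92 and 132 CPM in wild type and 22.1 and 270.2 CPM under the Trpv4-null label. In the last group, of 9 antiviral and regulatory proteins, all 9 were 2-fold or more higher, with log2 ratios from 1.63 to 5.26 in wild type. Slfn4, a schlafen gene of myeloid cells, had only 7 and 8 UMIs untreated (0.160 and 0.170 CPM) against 37.8 and 46.4 CPM with LPS; the ratio was 236 (115 to 588) and 273 (138 to 632). Ifi44 had 3.84, 184, 6.47 and 219 CPM, while Sp100, a nuclear body protein, had a ratio of 3.12 and 2.81.

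Upstream of these genes, of 11 interferon ligands listed, Ifnb1 alone was in the table. It had 1 UMI and 637 UMIs in wild type and 0 and 709 UMIs under the Trpv4-null label. The wild-type ratio was 193 with a counting interval from 34.6 to 7648, and the other was at least 102-fold higher, taken against a floor of 3 UMIs in the untreated library. After LPS, Ifnb1 UMIs were found in 208 cells (2.51%) and 222 cells (3.38%). Of the 5 receptor genes compared, 0 were 2-fold higher, against 6.9% of all genes in wild type and 7.3% under the Trpv4-null label. Ifngr1, a chain of the interferon-gamma receptor, was 2-fold lower (280.0 and 123 CPM in wild type, log2 -1.18, and -1.09 under the Trpv4-null label). Of all genes, 17.7% and 21.3% were lower by that much. These calls rest on scaling by library totals. Ifnar1 stood at 95.6 and 131 CPM and Ifnar2 at 126 and 141 CPM in wild type.

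Among the signalling kinases and factors, in wild type Stat2 went from 32.6 to 223 CPM and the kinase Jak2 from 21.3 to 102 CPM, while Irf9 stood at 55.2 and 70.4 CPM. Feedback inhibitors were 2-fold higher in 2 of 6 in wild type and 3 of 6 under the Trpv4-null label, among them Socs1 (1.92 to 47.4 CPM in wild type). For this list and those that follow, the shares of all genes 2-fold higher were 6.9% in wild type and 7.3% under the Trpv4-null label. The shares lower were 17.7% and 21.3%. Of 13 genes of the arm that induces interferon, 4 were higher and 1 lower in each genotype: the interferon amplifier Irf7 went from 28.3 to 1131 CPM in wild type, and the RNA receptor Tlr7 was lower (log2 -1.14). In a wider list of other interferon-stimulated genes, 55 of 68 were 2-fold higher in wild type and 54 of 68 under the Trpv4-null label, 1 was lower in each, and the medians were 1.94 and 1.95. The largest wild-type log2 ratios of that list were those of Slfn1 (6.08), Ms4a4c (6.06), Oasl1 (5.68) and the chemokine gene Cxcl10 (5.54). A list of genes driven by NF-kB, the inflammatory transcription factor, had 8 of 12 higher and medians of 1.49 and 1.85.

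The cluster named Ifit1bl1+_Cmpk2+ held 177 of the untreated wild-type cells (2.52%, exact 95% binomial interval 2.16 to 2.91) and 865 after LPS (10.4%, 9.79 to 11.1). Under the Trpv4-null label it held 179 cells (3.26%, 2.81 to 3.77) and 720 cells (11.0%, 10.2 to 11.7). The clusters were made from the expression of these same genes, so the contrast of this cluster with the others is a description and carries no test. The median cell had 6368 UMIs against 5646 in the other clusters of untreated wild type, and 16398 against 16707 after LPS, and mitochondrial shares were lower (median 5.16% against 6.08%, and 2.53% against 3.11%). Treatment of doublets was not stated. In untreated wild type the 8 macrophage markers summed to 28732 CPM in the cluster and 26361 CPM in the whole library, whereas in the LPS library the cluster had the lower sum, 15167 against 20998 CPM. Under the Trpv4-null label the untreated sums were 24233 CPM in the cluster against 23269.9 CPM in the library, and those with LPS 14391 against 19465 CPM. The 5 monocyte markers, of which 2 reached 20 CPM in a library and Ms4a4c is itself interferon-stimulated, summed to 210.1 CPM in the cluster and 50.4 CPM in the library, and after LPS to 1520.4 and 860.2 CPM. Neutrophil markers summed to 2.42 CPM in the untreated wild-type cluster against 176 CPM in the library (9.504 against 48.3 CPM with LPS), and B cell markers to 217 against 141 CPM. The 5 listed markers of plasmacytoid dendritic cells, the classical interferon producers, summed to 1512 CPM in the cluster and 964 CPM in the library of untreated wild type. After LPS these sums were 3739 and 2930.2 CPM, and 3 of 5 markers reached 20 CPM in a library. The member Bst2 gave 2631 CPM of the wild-type LPS library's sum but only 241 CPM of the untreated one's. The part of these cell types in the result was not tested. None of the macrophage, monocyte or plasmacytoid markers was at 0 in the 4 libraries except 1 plasmacytoid marker under the Trpv4-null label with LPS.

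Before LPS the cluster held most of the IFIT, Rsad2 and Mx1 transcripts of the whole library. Ifit1 stood at 1087 CPM in the cluster and 9.30 CPM in the other cells of untreated wild type, 117-fold higher, and at 1215 and 12.0 CPM under the Trpv4-null label. Rsad2 stood at 1726 and 11.3 CPM and at 1629 and 17.1 CPM. Ifit1bl1 was at 266 and 0.471 CPM in wild type, 566-fold higher (361 to 939), and 94.3% of its UMIs lay in the cluster, which held 2.84% of all UMIs. The cluster also held 81.6% of the UMIs of Rsad2, 81.2% of Ifi205, 80.7% of Ifit2, 79.4% of Mx1 and 77.4% of Ifit1. It held over 50% of the UMIs of 12 genes in each untreated library, 11 of them the same: Ifit1, Ifit2, Ifit3, Ifit3b, Ifit1bl1, Isg15, Mx1, Rsad2, Ifi44, Ifi205 and Cmpk2. At the other end, Samhd1 (889.6 and 369 CPM), Ifitm3 (1941 and 709.6 CPM) and Ly6e (1061 and 369 CPM) were less than 3-fold higher in the cluster, and the cluster held 6.58% of the Samhd1 UMIs. All 36 genes compared were 2-fold or more higher in the cluster in untreated wild type, against 3.34% of all genes, and all 35 were under the Trpv4-null label, against 3.33%. The median log2 ratio was 3.03 and 3.23.

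**Figure D2:**
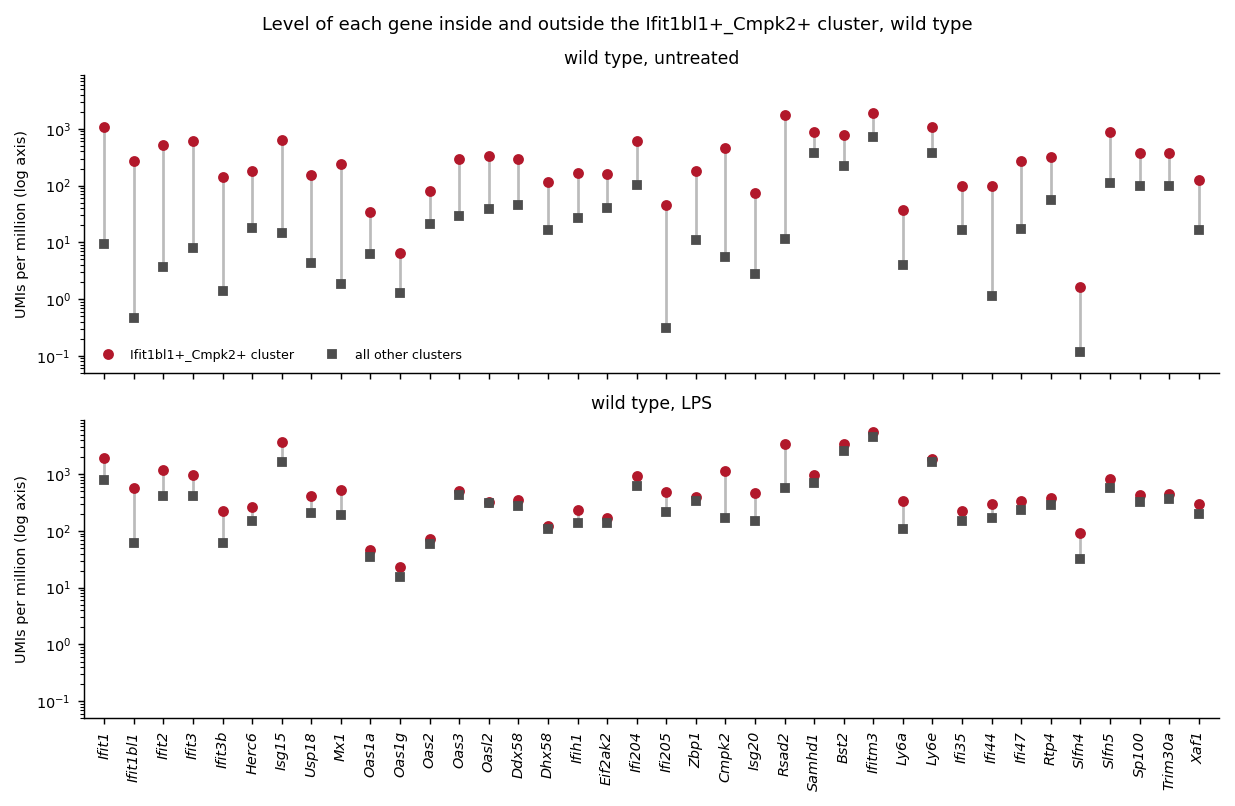
Level of each gene in CPM (log axis) in the Ifit1bl1+_Cmpk2+ cluster (circles) and in all other clusters (squares) of the wild-type libraries, untreated above and LPS below. The gap between the symbols is wide untreated (Ifit1bl1 266 and 0.471 CPM) and narrow after LPS, where Oasl2 has 329 and 314 CPM.

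After LPS the contrast between cluster and other cells was smaller for each of the 38 genes in both genotypes. In wild type 13 of 38 were 2-fold or more higher in the cluster, against 1.99% of all genes, and the median log2 ratio was 0.58. Under the Trpv4-null label 12 of 38 were, against 1.95%, with a median of 0.55. The genes that remained highest were those of the cluster's name and Rsad2. Ifit1bl1 stood at 569 and 61.4 CPM in wild type (9.28-fold) and 747 and 105 CPM under the Trpv4-null label (7.09-fold), Cmpk2 at 1140 and 167 CPM (6.85-fold) and Rsad2 at 3439 and 566 CPM (6.08-fold). Ifit1bl1 was the 1 gene with over 50% of its wild-type LPS UMIs in the cluster (52.0%). Oasl2 (1.05-fold), Ly6e (1.13-fold) and Zbp1 (1.18-fold) were nearly level there. The cluster held 15.4% of the 38 genes' UMIs untreated and 16.9% after LPS in wild type, 18.0% and 17.5% under the Trpv4-null label, while its share of all UMIs was 2.84%, 10.4%, 3.62% and 11.1%.

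Pathway genes in the untreated wild-type cluster were split by role. Irf7 stood at 373 CPM in the cluster and 18.2 CPM outside it, Stat2 at 205 and 27.6 CPM and Socs1 at 31.4 and 1.06 CPM. The receptor genes were near level, with Ifnar1 at 100.6 and 95.5 CPM and Ifnar2 at 122 and 126 CPM. Ifnb1 UMIs after LPS lay mostly in the cluster: 568 of 637 UMIs (89.2%) in wild type and 623 of 709 (87.9%) under the Trpv4-null label. Of cluster cells, 18.2% and 21.5% had an Ifnb1 UMI, against 0.687% and 1.15% of the other cells, and the 10 cells with most held 173 and 205 UMIs. Cluster cells with an Ifnb1 UMI had a median 4.73% and 4.81% of their UMIs from the 38 genes, against 2.91% and 3.39% in cluster cells without one. They were also somewhat deeper, with median totals of 17269 and 18667 UMIs against 16254 and 15916.

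The ratio of LPS to untreated was smaller inside the cluster than outside it. It restates the contrasts of cluster and other cells before and after LPS in another form, and is not a separate result. The clusters were made from the expression of these same genes, so a high untreated level inside this one follows in part from how it was made. In the other clusters 36 of the 37 genes compared had a CPM ratio of 2 or more in each genotype, against 6.95% of all genes compared there in wild type and 7.44% under the Trpv4-null label, and the median ratio over the 38 was 11.9 and 11.5. Inside the cluster 17 of 38 did in each genotype, against 6.5% and 6.41% of all genes, with a median of 1.78 and 1.77, and 3 and 5 genes were below 1. With size factors the inside counts were 26 of 38 in each genotype, against 14.5% and 15.9% of all genes, with medians of 2.58 and 2.70 and 0 genes below 1. Outside it they were then 37 of 37, against 13.4% and 15.9%. Rsad2 in wild type had a ratio of 1.99 inside and 49.9 outside, Ifit1 1.81 and 84.6, Mx1 2.18 and 103. Genes with a clear ratio inside the cluster as well included Slfn4 (57.003, 15.8 to 471), Ifi205 (10.9), Ly6a (9.002), Isg20 (6.28), Isg15 (5.76) and Bst2 (4.43). The Slfn4 ratio rests on very few untreated UMIs, since the whole untreated wild-type library had 7. Slfn5 (0.944), Oas2 (0.911) and Oasl2 (0.981) were near 1 inside it. Different cells make up the cluster in the untreated and LPS libraries, so these ratios compare cells that share a cluster name, not the same cells over time. In the 7 other clusters with at least 100 cells per library the median log2 ratio lay between 3.36 and 3.76 in wild type and between 3.096 and 3.61 under the Trpv4-null label, and the response was seen in each of them.

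**Figure D3:**
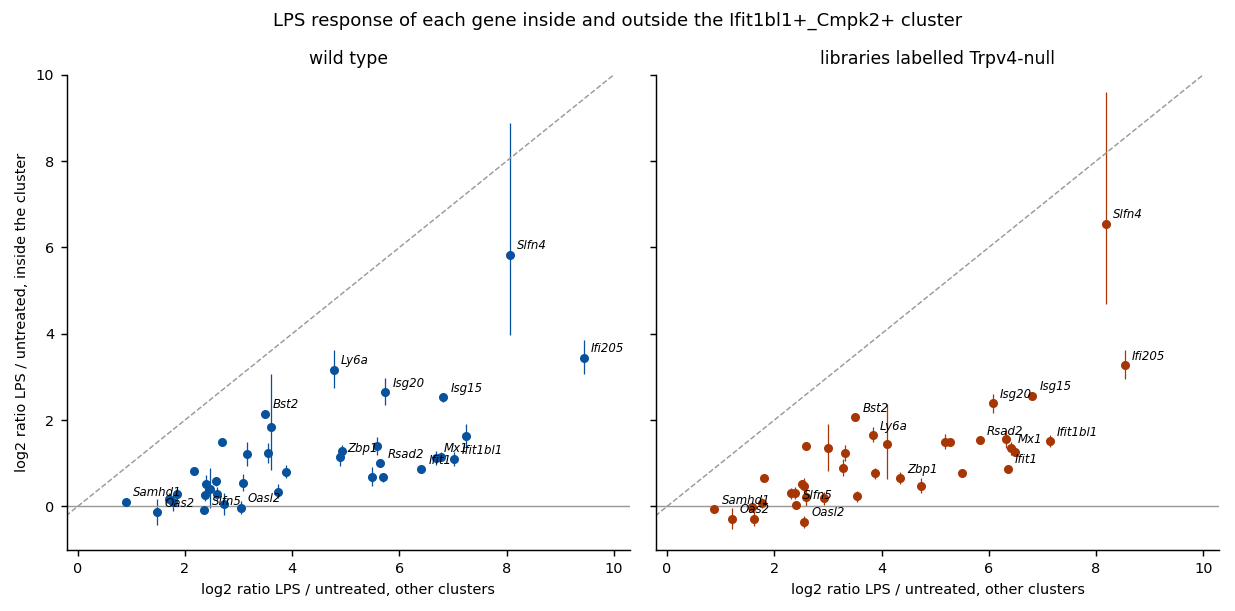
Log2 ratio of LPS to untreated CPM for each gene inside the Ifit1bl1+_Cmpk2+ cluster (vertical axis) and in the other clusters (horizontal axis), wild type left and labelled Trpv4-null right, with 95% counting intervals inside the cluster as bars and the line of equality dashed. Every point lies below the line, which restates the smaller contrast of cluster and other cells after LPS. Slfn4, at a ratio of 57.003 inside the wild-type cluster, lies nearest to the top.

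Cell by cell, the 38 genes made up a median 1.33% of a cluster cell's UMIs and 0.226% of another cell's in untreated wild type, and 1.54% and 0.261% under the Trpv4-null label. After LPS the medians were 3.04% and 1.90%, and 3.55% and 2.17%. By this summed share, most other cells of the LPS libraries lay above the untreated cluster's median: 6960 of 7423 (93.8%) in wild type, and 5457 of 5845 (93.4%) under the Trpv4-null label. Among untreated cells outside the cluster 0 and 2 cells exceeded that median. The shares overlapped, since the untreated cluster's upper quartile was 1.96% and 2.21%. Single genes often went the other way. In wild type Rsad2, Ifit1bl1, Ifit1, Ifit2, Ifit3, Cmpk2, Mx1, Slfn5 and Samhd1 were among those with a higher CPM in the untreated cluster than in the other cells with LPS. The summed share gives most weight to abundant genes, and of these Ifitm3, Bst2, Ly6e and Isg15 were lower in the untreated cluster than in those cells. Within the LPS libraries 68 cells of the other clusters exceeded the cluster's own median in each genotype (0.916% and 1.16%). Depth differed between libraries, so detection was counted after thinning each cell to 3000 UMIs, which left out 666, 122, 209 and 93 shallower cells. The median thinned cell of untreated wild type had 17 of the genes detected in the cluster and 4 outside it, and 25 and 20 after LPS.

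**Figure D4:**
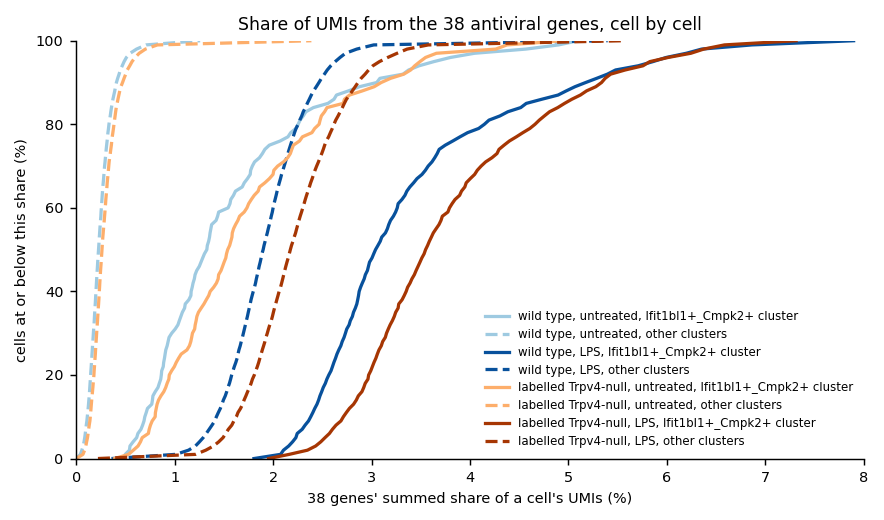
Cumulative share of cells (vertical axis, %) by the 38 genes' summed share of each cell's UMIs (horizontal axis, %), for the Ifit1bl1+_Cmpk2+ cluster (solid) and the other clusters (dashed) of each library. The dashed LPS curves, with medians of 1.90% and 2.17%, lie to the right of the solid untreated curves over most of their range, and the solid LPS curves lie farthest right.

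For the single genes given here, detection was higher in the cluster than outside it in each wild-type library, and higher after LPS in both sets of cells. In untreated wild type 67.7% of thinned cluster cells had an Rsad2 UMI (79.7% unthinned), against 2.92% of other cells (5.75%). After LPS these shares were 96.5% (99.9%) and 68.0% (94.6%). Isg15, the tag, was detected in 67.7% and 4.12% of thinned cells untreated and in 98.7% and 95.3% after LPS. Ifit1bl1 remained patchy, at 32.3% and 0.161% untreated and 58.7% and 13.9% after LPS. Other cells with LPS did not always exceed the untreated cluster: for Ifit1bl1 the shares were 13.9% and 32.3%, and for Rsad2 68.0% and 67.7%. The annotation named no cell type that lacks these transcripts, so the part of free RNA in the low shares was not tested.

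Differences between the genotype labels were small for most of the genes. These comparisons reuse the 4 libraries of the LPS comparisons, and genotype and library cannot be told apart. Untreated, the ratio of the Trpv4-null label to wild type was above 1 for 36 of the 38 genes, whatever their level. The minimum of 20 CPM in the higher library kept 28 of them, with a median log2 ratio of 0.28 against -0.02 for all genes. However, 7 of the 28 passed it through the library labelled Trpv4-null alone, so that their direction was fixed by the minimum. These were Ifit2, Ifi35, Dhx58, Cmpk2, Zbp1, Xaf1 and Ly6a. Of genes with at least 20 CPM in both libraries, 21 of 21 members were above 0, with a median of 0.21, against 42.0% of all such genes. Oas1a, under the minimum, had a ratio whose interval lay below 1 (0.731, 0.616 to 0.866). Of the 28, Ly6a alone was 2-fold higher, against 0.146% of all genes, and 0 were 2-fold lower, against 0.146%. After LPS all 37 genes compared had at least 20 CPM in both libraries, and 33 were above 0 and 4 below, with a median of 0.15, against 38.3% of all such genes above 0 and a median of -0.04. The interval lay below 1 for Oasl2. Ly6a was again the 1 gene at 2-fold or more higher (0.134% of all genes) and 0 were lower (0.0573%). The cluster's share of cells also differed untreated (2.52% and 3.26%). Without the cluster's cells the median was 0.17 untreated and 0.20 after LPS, against -0.02 and -0.04 for all genes. The untreated value is over the 19 genes that still reached the minimum, so it and the median over 28 are not of the same genes. Within the 8 clusters compared, the untreated median lay between 0.09 and 0.29, and the LPS median between 0.10 and 0.20.

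Ly6a showed the largest difference of the set. Its untreated level was 4.92 CPM in wild type and 22.1 CPM under the Trpv4-null label, a ratio of 4.50 (3.88 to 5.24), and after LPS at 132 and 270.2 CPM, a ratio of 2.05 (2.01 to 2.08). It was higher in 8 of 8 clusters both untreated and after LPS. Untreated, it reached the minimum in only 4 of the 8, and the log2 ratio over all 8 lay between 1.16 and 2.92. After LPS the log2 ratio lay between 0.34 and 1.32. The untreated level lay just above the minimum of 20 CPM under the Trpv4-null label alone, and without the cluster, at 16.8 CPM, the gene was not compared. Oasl2 went the other way after LPS, from 315 to 233 CPM, a ratio of 0.740 (0.728 to 0.751), and was lower in 8 of 8 clusters (log2 -0.48 to -0.26). Untreated, its ratio of 1.06 had an interval that held 1 (0.995 to 1.12), and it was above 1 in 3 of 8 clusters.

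Among the other members Rsad2 (1.60), Ifit1bl1 (1.54), Cmpk2 (1.47) and Isg15 (1.42) had the next largest ratios after LPS. Each was above 1 in 8 of 8 clusters, Rsad2 with a log2 ratio between 0.45 and 0.86 and Cmpk2 between 0.33 and 0.73. Zbp1 (1.65) and Isg15 (1.53) were the highest of the genes compared untreated, after Ly6a. Of these, Ly6a and Zbp1 (15.9 and 26.1 CPM) passed the minimum through the library labelled Trpv4-null alone, so their direction was fixed by it. Ifi44, under the minimum in both libraries, had a ratio of 1.68. Bst2 (1.05 and 1.03), Slfn5 (1.04 in both) and Samhd1 (1.06 and 1.03) were nearly level between the labels. The wider list of other interferon-stimulated genes had medians of 0.18 untreated and 0.13 after LPS, and the NF-kB list -0.08 and 0.12.

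**Figure D5:**
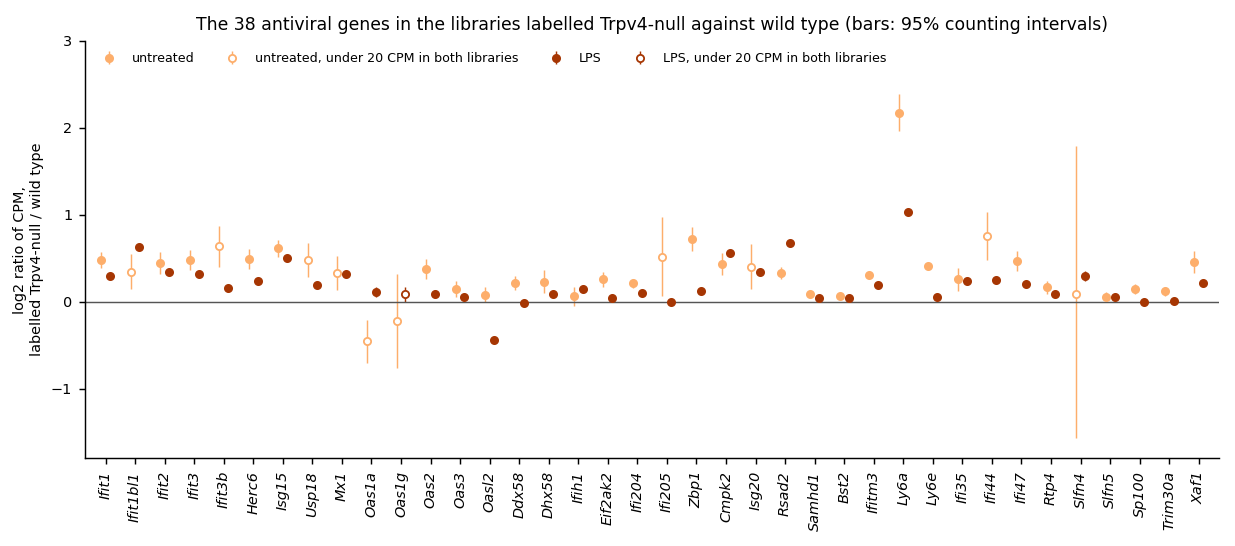
Log2 ratio of CPM in the library labelled Trpv4-null to wild type for each gene, untreated and LPS, with 95% counting intervals as bars; open symbols are genes under 20 CPM in both libraries. Ly6a stands highest in both treatments (ratios of 4.50 and 2.05), and Oasl2 after LPS and Oas1a untreated lie below 0 (ratios of 0.740 and 0.731).

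The genes whose levels were most like the mean of the 38 were ranked over 32 sums of cells (8 clusters in 4 libraries, with sums of a library sharing depth and culture) among 6434 genes. Phf11b was first (Pearson r = 0.997), and the leading 10 also held Ifi209, Ifi206, Parp12, Ifi211, Rnf213, Stat2, Tor3a and Mov10 (r = 0.993, the lowest of them). Phf11b stood at 13.6 and 310.3 CPM in wild type and at 18.5 and 366 CPM under the Trpv4-null label. In the untreated wild-type cluster it stood at 165 CPM.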

How the data were processed

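Whole-number UMI counts per gene and cell were used as the authors deposited them, not normalized, with the deposited annotation of each cell (library, cluster and, per the file headers, the mitochondrial fraction and UMI count). Cell Ranger 3.1.0, Seurat 4, R 4.2 and build mm10 are named in the submitters' processing notes, with no role given. Deposited cells had 1003 to 39987 UMIs, and how the authors filtered cells was not given in the sources used here. The members and all lists were chosen with earlier results of these data known.

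UMIs were summed per library, or per library and cluster, and scaled to CPM. Log2 ratios used CPM plus 1, and ratios and folds without log2 had no pseudocount. With 1 library per group no test was run. Intervals are 95% exact Poisson (CPM), exact conditional binomial (ratios) and Clopper-Pearson (shares), for counting error only. Named genes were all members, the ligands, receptors and kinases, up to 4 genes of each other list by wild-type LPS ratio, and the 10 most like the members' mean; 1 gene that the rule names is not reported here. Alternatives were other scalings, pseudocounts and minimums, leaving out or reweighting clusters, thinning, per-cell means, and, added after seeing the data, leaving out cells with shared barcodes, a minimum on the mean of both libraries, size factors within the cluster, and centring libraries before ranking genes most like the mean. The calls by ratio and the ratio intervals were tested on simulated Poisson counts with known ratios, without variation among mice or cultures. The other steps were not tested in this way. Python 3.11.15, pandas 2.3.3, numpy 2.4.6, matplotlib 3.10.9 and scipy 1.17.1 were used. R 4.3.3 gave the median-of-ratios size factors and, with edgeR 4.0.16, the TMM factors. Positions came from GENCODE on GRCm38 and promoter windows from RefSeq, where 29 of 38 members matched.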

Additional observations from a re-analysis of the deposited data

Results flagged for a closer look

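Oas1a was lower under the Trpv4-null label untreated (ratio of 0.731) and higher after LPS (1.08), with counting intervals on opposite sides of 1. The difference between the treatments was not tested, the untreated levels were 7.13 and 5.21 CPM, and reads may be split with Oas1g.

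In the libraries labelled Trpv4-null, 5 genes had ratios of LPS to untreated below 1 inside the Ifit1bl1+_Cmpk2+ cluster and above 1 outside it, and for 3 of them the counting interval inside lay below 1 as well. For these 3 the ratio was 0.822 inside and 2.31 outside for Oas2, 0.779 and 5.89 for Oasl2, and 0.822 and 3.07 for Eif2ak2. With median-of-ratios size factors the values inside were 1.25, 1.19 and 1.25. The other two were Samhd1 (0.956 inside and 1.84 outside) and Sp100 (0.983 and 3.01), whose intervals inside held 1. These differences were not tested, since each side is 1 library per treatment.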

How the results depend on the processing

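Of 128 values of the list as a whole under 13 alternatives, 102 were unmoved, 26 moved (beyond the counting interval, or by over 1.5 times for a count) and 0 reversed. A reversal could be called only for medians of 2-fold or more in size, so counts and the smaller medians, such as those between genotypes, could not be called reversed. For single members, 665 of 2689 values moved and 0 of those at 2-fold or more changed sign. Median-of-ratios size factors gave median log2 ratios for LPS of 3.84 in wild type and 3.65 under the Trpv4-null label, and a genotype median after LPS of 0.22. TMM factors gave 3.83, 3.62 and 0.21. A pseudocount of 5 CPM gave LPS medians of 3.05 and 2.87, and 2.97 for the cluster against the others in the untreated library labelled Trpv4-null. The same median in untreated wild type was 3.16 with a pseudocount of 0.1 CPM and 3.16 without the 5% of cells with the most UMIs. Without the Ifit1bl1+_Cmpk2+ cluster the LPS medians were 3.49 and 3.49, and the genotype medians 0.17 untreated, over 19 genes, and 0.20 after LPS. With clusters weighted equally the LPS medians fell to 2.20 and 2.47, the untreated genotype median was 0.13, and 0 genes were 2-fold apart between the genotypes after LPS. Thinned cells gave a genotype median of 0.19 after LPS. The count of 1 gene at 2-fold between the untreated genotypes, Ly6a, became 0 with size factors, TMM factors, thinned cells, the mean of per-cell shares, a minimum of 20 CPM on the mean of both libraries, and without the cluster; its level of 22.1 CPM lay close to the minimum of 20. Leaving out the 148 cells with shared barcodes moved none of these values. With library means subtracted, Parp12 ranked first among the genes most like the members' mean (r = 0.991). No paired analysis was possible because each group had 1 library. Depth limited Slfn4, Oas1g and Ifnb1, which had few UMIs in untreated cells.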

Other observations

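Over thinned cells within a library, each gene's count was correlated with the summed count of the other members, given as a description over cells that share a library, without a test and only for genes found in at least 5% of the cells. Inside the Ifit1bl1+_Cmpk2+ cluster of untreated wild type (167 cells) the median Pearson r over 36 genes was 0.35, highest for Cmpk2 (0.74) and Rsad2 (0.70) and lowest for Dhx58 (0.08). After LPS (861 cells) the median over 37 genes was 0.19, and Cmpk2 (0.68), Rsad2 (0.61) and Ifit1bl1 (0.61) were the highest, whereas Oas3 (-0.05) and Dhx58 (-0.02) were near 0. In the other clusters of the LPS library the median was 0.12 over 37 genes.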
